A study of Mus musculus with 9 samples.

Results

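Potassium channel genes were followed through an in vitro cardiac differentiation of mouse embryonic stem cells. They were taken as the genes whose symbol starts with Kcn, with Kcnq1ot1, an antisense RNA and no channel, left out. Of 14860 named genes on the Affymetrix Mouse Exon 1.0 ST array, 73 met this rule. The array carried 74 transcript clusters (its units for a gene) with such a symbol, and a dimmer second cluster of Kcnc1 was set aside. The rule used no measured level apart from this choice of the brighter cluster.

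All cells came from the E14.1 line of 129/Ola mice and carried no transgene named in the labels. Embryonic stem cells were differentiated as far as cardiac progenitors, which were then sorted. The cTnT+ group (3 arrays) held cardiomyocytes grown from sorted Flk1+Pdgfra+ cells, and the labels do not say whether a sort for cardiac troponin T followed. The Flk1+Pdgfra+ group (3 arrays) held progenitors positive for the VEGF receptor Flk1 and the PDGF receptor alpha, and the Flk1+ group (3 arrays) held the Flk1-positive, Pdgfra-negative fraction. No day of culture, dose or technical replicate was given for any group. Separate cultures behind the replicates of a group are not stated, so the p-values cover only array-to-array spread, part of which may be technical.

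Potassium channels let potassium leave the cell and so set the resting potential and end the action potential. In cardiomyocytes the voltage-gated Kv channels and the KCNQ1 and ERG channels repolarise the membrane, the inward rectifiers (Kir) hold it near rest, the tandem-pore or two-pore-domain (K2P) channels carry leak current, and the calcium-activated channels tie potassium efflux to calcium. Many pore-forming subunits assemble with accessory proteins that set their gating and traffic. These roles are background and were not measured here, since the array reports RNA only.

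Values are log2 expression values after RMA, a method that removes background, gives every array the same distribution of probe values and combines each gene's probes into 1 value. A difference of 1 on this scale is a fold of 2. A gene was called changed where limma gave a Benjamini-Hochberg adjusted p under 0.05 over all 14860 genes. Array medians lay between 7.26 and 7.53. The lower quartiles lay between 5.60 and 5.69, and a gene below them may be no more than background, so its fold is no exact measure.

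The groups carried their defining markers. Tnnt2, the gene of cardiac troponin T, averaged 12.28 ± 0.38 in cTnT+ cells, 7.01 ± 0.37 in Flk1+Pdgfra+ cells and 8.36 ± 0.52 in Flk1+ cells (SD, n = 3 each). Pdgfra averaged 11.31 ± 0.32 in cTnT+ cells, 11.35 ± 0.42 in Flk1+Pdgfra+ cells and 6.96 ± 0.40 in Flk1+ cells. Kdr, the gene of Flk1, averaged 10.84 ± 0.50 in cTnT+ cells, 11.98 ± 0.25 in Flk1+Pdgfra+ cells and 12.30 ± 0.16 in Flk1+ cells. It was thus lower in cTnT+ cells but still far above the array medians. Markers of other cell types also differed between the groups. Against Flk1+Pdgfra+ cells, 22.5% of all genes were called higher and 18.7% lower in cTnT+ cells. Against Flk1+ cells these shares were 22.6% and 16.6%. The marker lists are short, so the smaller counts below are not far from these shares. Against Flk1+Pdgfra+ cells, cTnT+ cells were called higher in 8 of 8 cardiomyocyte markers, 7 of 8 endothelial, 4 of 5 smooth muscle, 5 of 5 fibroblast and 3 of 8 haematopoietic markers, and in 1 of 7 neural markers, Pax6. In the same comparison 1 haematopoietic marker, Runx1, and 3 of 6 pluripotency markers, Pou5f1, Nanog and Zfp42, were lower. Against Flk1+ cells, cTnT+ cells were higher in 8 of 8 cardiomyocyte, 4 of 5 smooth muscle, 5 of 5 fibroblast, 1 of 8 endothelial and 1 of 7 neural markers, and lower in 5 of 8 haematopoietic, 2 of 8 endothelial and 2 of 6 pluripotency markers. Between the progenitor groups, 8 of 8 endothelial and 5 of 8 haematopoietic markers were lower in Flk1+Pdgfra+ cells (5.87% of all genes were lower and 4.64% higher). So was 1 of 8 cardiomyocyte markers, Tnnt2. Among the 6 pluripotency markers Tdgf1 was higher there and Dppa4 lower. Pou5f1 averaged 10.77 ± 0.40 in Flk1+Pdgfra+ cells and 8.28 ± 2.16 in Flk1+ cells and was not called (adjusted p = 0.121). The part of these other cell types in the results below was not tested. In such bulk samples fewer cells of a type cannot be told apart from less RNA per cell. The Flk1+ group was the least uniform. In this group the third array read 10.73 for the pluripotency gene Pou5f1, against 6.69 and 7.41 in the other Flk1+ arrays. Results for Kcnj3, Kcne3 and Kcnma1 are given below with and without it. Other calls turned on it too. Without it, Kcnd1 was also called higher in Flk1+Pdgfra+ than in Flk1+ cells. Kcng3, Kcnj4 and Kcnrg were then called higher in cTnT+ than in Flk1+ cells. Leaving out an array that lies toward the other group enlarges a difference, so a call gained in this way is no support for it.

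Across the 73 genes, cTnT+ cells differed from both progenitor fractions more than the progenitor fractions differed from each other. Against Flk1+Pdgfra+ cells, 16 Kcn genes were called higher and 10 lower in cTnT+ cells, which is 35.6% of the 73, beside 41.2% of all genes tested (22.5% higher and 18.7% lower). Against Flk1+ cells, 15 were higher and 5 lower in cTnT+ cells, or 27.4%, beside 39.2% of all genes (22.6% higher and 16.6% lower). In Flk1+Pdgfra+ cells against Flk1+ cells, 3 were higher and 1 lower, or 5.48%, beside 10.5% of all genes (4.64% higher and 5.87% lower). The share of Kcn genes called was thus below that of all genes in each comparison. The arrays of the groups did not overlap for 33 Kcn genes in cTnT+ against Flk1+Pdgfra+ cells (20 higher and 13 lower; 54.9% of all genes did not overlap), for 27 in cTnT+ against Flk1+ cells (19 and 8; 47.4% of all genes) and for 22 in Flk1+Pdgfra+ against Flk1+ cells (13 and 9; 34.3% of all genes). Calls with a change of at least 1 on the log2 scale numbered 14 (19.2%, beside 15.6% of all genes), 12 (16.4%, beside 14.1%) and 3 (4.11%, beside 4.36%) in these comparisons. The median difference of the Kcn genes was 0.0079 in cTnT+ against Flk1+Pdgfra+ cells, 0.14 in cTnT+ against Flk1+ cells and 0.12 in Flk1+Pdgfra+ against Flk1+ cells, beside medians over all genes of 0.0043, 0.053 and 0.068 in those comparisons. Low signal was no more frequent among Kcn genes than elsewhere. Overall means under the lowest lower quartile were found for 13 of 73 Kcn genes (17.8%) and for 18.1% of all genes. None of the 13 was called by limma in a comparison. Of all genes this dim, 7.63% were called in cTnT+ against Flk1+Pdgfra+ cells and 7.26% against Flk1+ cells. Between the progenitor groups 0.893% of them were called. For 13 genes, none called is near these shares. In all, 30 Kcn genes were called in at least 1 comparison and 43 in none. The same count was not made over all genes, so these numbers only describe the Kcn genes.

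**Figure D1:**
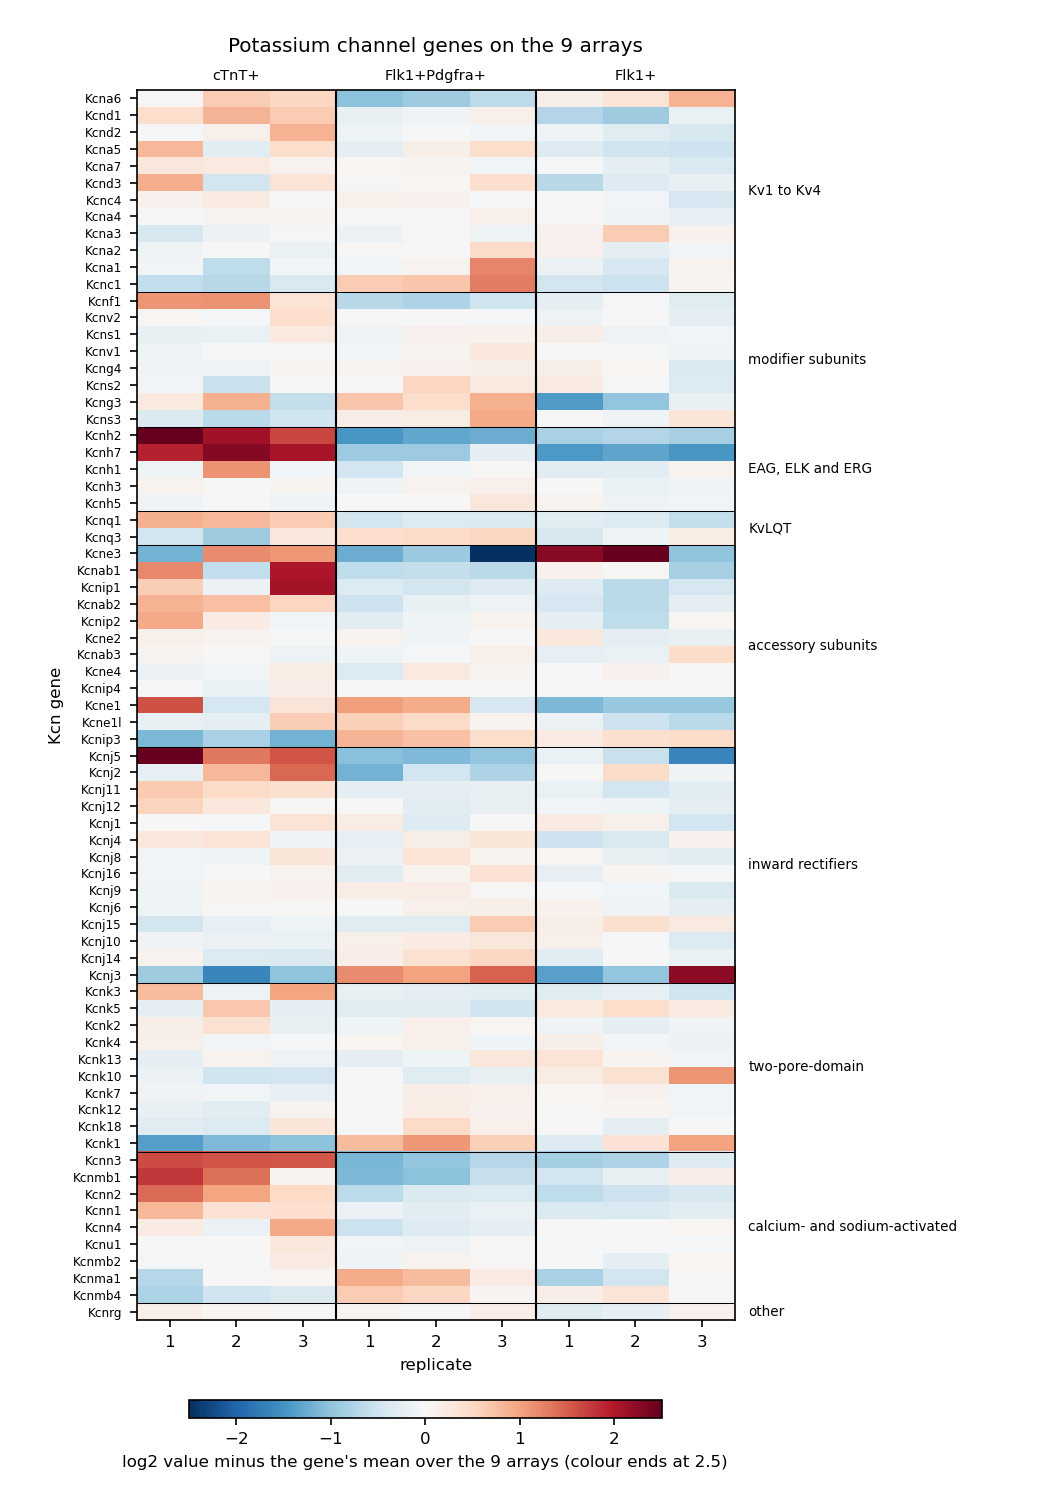
Heat map of the 73 Kcn genes (rows, grouped by channel family) on the 9 arrays (columns, cTnT+, Flk1+Pdgfra+ and Flk1+, replicates 1 to 3 in each). Colour is the log2 value minus the gene's mean over the 9 arrays; the strongest contrasts lie between the cTnT+ columns and the others, and the third Flk1+ column departs from its neighbours for genes such as Kcnj3 and Kcne3.

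The family counts are read beside 22.5% of all genes higher and 18.7% lower in cTnT+ against Flk1+Pdgfra+ cells, and most families are small. In cTnT+ against Flk1+Pdgfra+ cells, 4 of 9 genes of the calcium- and sodium-activated family were higher and 2 lower, and 4 of 14 inward rectifiers were higher and 3 lower. The former family was set by symbol. It held Kcnma1, the beta subunits Kcnmb1, Kcnmb2 and Kcnmb4, Kcnn1 to Kcnn4 and Kcnu1, and no sodium-activated Kcnt gene. Among the EAG, ELK and ERG channels 2 of 5 were higher and 0 lower. The 12 Kv1 to Kv4 genes gave 2 higher and 1 lower, the 8 modifier subunits 1 and 1, the 12 accessory subunits 1 and 1, the 10 K2P genes 1 and 1, and the 2 KvLQT genes 1 and 1. Median differences were 0.69 for the calcium- and sodium-activated genes, 0.49 for the EAG, ELK and ERG genes and between -0.15 and 0.17 for the other families with more than 1 gene, beside 0.0043 for all genes. Kcnrg, a regulator of channel assembly, is the remaining gene with a Kcn symbol. It averaged 6.05 ± 0.05 in cTnT+ cells, 6.04 ± 0.10 in Flk1+Pdgfra+ cells and 5.84 ± 0.22 in Flk1+ cells. With all arrays it was called in no comparison.

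**Figure D2:**
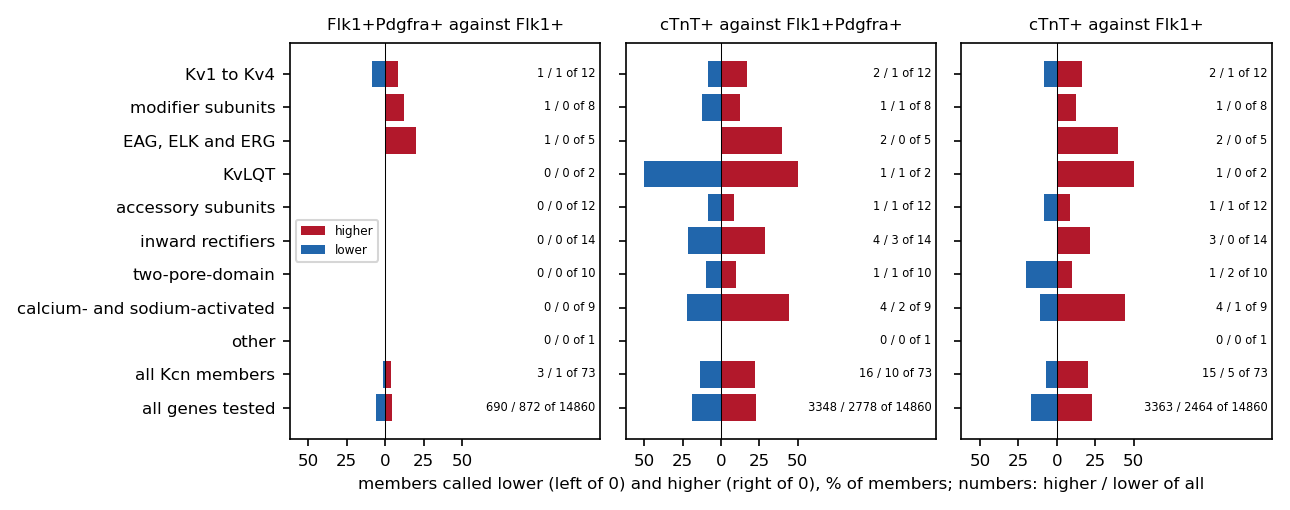
Bars give the percentage of each channel family called higher (right of 0) or lower (left of 0) in 3 panels, from left to right Flk1+Pdgfra+ over Flk1+ cells, then cTnT+ over Flk1+Pdgfra+ cells, then cTnT+ over Flk1+ cells, with all Kcn genes and all genes tested at the foot. The numbers at the right are genes higher, lower and tested; the bars for the 73 Kcn genes, 16 higher and 10 lower in the middle panel, are no longer than those for all genes.

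The upstream sequences of the genes with the largest called differences between cTnT+ and Flk1+Pdgfra+ cells are shown because these genes carry the comparison: the 4 with the largest rises and the 1 with the largest fall. Each run is the 250 bases before the annotated start, 5′ to 3′ on the gene's strand, from RefSeq (GRCm38.p6). Capitals mark a match to a motif of cardiac transcription factors, searched on both strands. The motifs were AGATAA for the GATA family, CAAGTG for the NKX2 family, AGGTGT for the T-box family and TAAAAATA for the MEF2 family.
Kcnh2, chr5:24329592-24329841, minus strand: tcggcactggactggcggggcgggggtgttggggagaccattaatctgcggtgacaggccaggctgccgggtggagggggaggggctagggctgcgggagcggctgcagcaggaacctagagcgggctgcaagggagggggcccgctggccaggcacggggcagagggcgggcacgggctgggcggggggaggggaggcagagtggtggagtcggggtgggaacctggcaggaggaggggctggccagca
Kcnj5, chr9:32344345-32344594, minus strand: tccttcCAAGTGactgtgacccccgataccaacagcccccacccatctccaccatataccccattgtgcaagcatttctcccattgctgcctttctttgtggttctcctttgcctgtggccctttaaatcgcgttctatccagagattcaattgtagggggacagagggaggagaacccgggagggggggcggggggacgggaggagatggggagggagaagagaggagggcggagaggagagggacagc
Kcnh7, chr2:63184288-63184537, minus strand: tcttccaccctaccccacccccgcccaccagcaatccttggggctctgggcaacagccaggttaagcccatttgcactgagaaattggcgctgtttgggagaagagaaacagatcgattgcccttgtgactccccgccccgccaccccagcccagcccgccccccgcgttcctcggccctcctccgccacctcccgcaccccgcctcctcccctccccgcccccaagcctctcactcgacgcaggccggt
Kcnn3, chr3:89519914-89520163, plus strand: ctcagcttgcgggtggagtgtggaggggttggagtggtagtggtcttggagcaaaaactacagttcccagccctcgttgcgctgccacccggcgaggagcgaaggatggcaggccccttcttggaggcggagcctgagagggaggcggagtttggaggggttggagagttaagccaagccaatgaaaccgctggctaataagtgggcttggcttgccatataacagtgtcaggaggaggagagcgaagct
Kcnj3, chr2:55435720-55435969, plus strand: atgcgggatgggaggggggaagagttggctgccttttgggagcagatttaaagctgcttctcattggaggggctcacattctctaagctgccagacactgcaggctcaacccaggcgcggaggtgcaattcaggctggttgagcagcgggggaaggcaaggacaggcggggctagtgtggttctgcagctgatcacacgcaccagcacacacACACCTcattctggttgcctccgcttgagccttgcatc

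The Kcnh2 and Kcnh7 windows had a GC content of 73.6% and 67.6%, against 58.0%, 58.8% and 58.4% for Kcnj5, Kcnn3 and Kcnj3. Kcnj5 held 1 CAAGTG, which began 244 bases before the start. Kcnj3 held 1 AGGTGT on the opposite strand, 38 bases before the start, and Kcnh2, Kcnh7 and Kcnn3 held none of the 4 motifs. Windows were found for 58 of the 73 genes. CAAGTG stood in 3 of 14 windows of genes higher in cTnT+ than in Flk1+Pdgfra+ cells and in 3 of 11 windows of genes lower, beside 11.6% of 32851 windows of all genes. AGATAA stood in 0 and 1 of these windows (9.99% of all), AGGTGT in 1 and 1 (11.8%) and TAAAAATA in 0 and 0 (2.45%). Over the 79 windows of all Kcn genes, called or not, CAAGTG stood in 13, AGATAA in 3, AGGTGT in 12 and TAAAAATA in 1. The counts are a description of letters in short windows, and some genes have more than 1 window.

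Both measured ERG genes rose in cTnT+ cells. Kcnh2, which encodes the pore of the rapid delayed rectifier current that ends the cardiac action potential, read 11.36, 10.89 and 10.46 in the cTnT+ arrays, 7.33, 7.48 and 7.55 in the Flk1+Pdgfra+ arrays and 7.96, 8.04 and 7.96 in the Flk1+ arrays. Every cTnT+ array lay far above every progenitor array, and the replicates of each group kept close together. Kcnh2 was 10.9-fold higher in cTnT+ than in Flk1+Pdgfra+ cells (log2 difference 3.45, 95% interval 2.99 to 3.91, adjusted p = 1.27e-05), the largest rise of any Kcn gene in that comparison, and 7.55-fold higher than in Flk1+ cells (2.92, adjusted p = 3.17e-05). Its relative Kcnh7, an ERG channel best known from neurons, read 8.21, 8.59 and 8.35 in cTnT+ arrays, 5.39, 5.39 and 6.07 in Flk1+Pdgfra+ arrays and 4.86, 4.99 and 4.83 in Flk1+ arrays. Kcnh7 rose by 2.77 over Flk1+Pdgfra+ cells (adjusted p = 2.50e-05) and by 3.49 over Flk1+ cells (adjusted p = 1.52e-05). All Flk1+ arrays and the first and second Flk1+Pdgfra+ arrays lay below the lower quartiles, and the third Flk1+Pdgfra+ array above them. Neither rise is therefore an exact fold. Kcnh7 was the only Kcn gene called in all 3 comparisons. The other 3 genes of the family, Kcnh1, Kcnh3 and Kcnh5, were not called.

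Of the KvLQT pair, Kcnq1 rose and Kcnq3 was lower in cTnT+ cells. Kcnq1, the pore of the slow delayed rectifier current, read 7.59, 7.52 and 7.35 in cTnT+ arrays, 6.24, 6.36 and 6.34 in Flk1+Pdgfra+ arrays and 6.45, 6.36 and 6.11 in Flk1+ arrays. The cTnT+ arrays stood apart, while the progenitor groups overlapped. Kcnq1 was 2.25-fold higher in cTnT+ than in Flk1+Pdgfra+ cells (1.17 ± 0.11 SE, adjusted p = 0.000101) and 2.27-fold higher than in Flk1+ cells (adjusted p = 0.000125). Kcnq3, a subunit of the neuronal M current, read 6.74, 6.34 and 7.50 in cTnT+ arrays, 7.65, 7.70 and 7.73 in Flk1+Pdgfra+ arrays and 6.83, 7.11 and 7.42 in Flk1+ arrays. Its fall against Flk1+Pdgfra+ cells (-0.84, adjusted p = 0.0378) came from tight Flk1+Pdgfra+ arrays and scattered cTnT+ arrays, and the call was lost without any 1 of 6 arrays: each of the Flk1+Pdgfra+ arrays, the second Flk1+ array or the first or the second cTnT+ array (adjusted p 0.0577 to 0.108).

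Kcne1, the KCNQ1 partner that slows its gating, did not follow Kcnq1. It read 9.27, 7.25 and 8.01 in cTnT+ arrays, 8.74, 8.62 and 7.26 in Flk1+Pdgfra+ arrays and 6.57, 6.74 and 6.73 in Flk1+ arrays. The cTnT+ and Flk1+Pdgfra+ arrays overlapped and spread over more than 1 log2 unit, and all lay above the Flk1+ arrays. Neither the difference between cTnT+ and Flk1+Pdgfra+ cells (-0.03, 95% interval -1.26 to 1.19, adjusted p = 0.969) nor that between cTnT+ and Flk1+ cells (1.50, adjusted p = 0.0556) was called. The last of these passed without the third Flk1+Pdgfra+ array (adjusted p = 0.0335) and without the second cTnT+ array (1.96, adjusted p = 0.0215). That cTnT+ array held the lowest Kcne1 value of its group, so leaving it out is no support for a rise. Kcne2 and Kcne4, further members of this accessory family, differed by at most 0.12 between any groups, at means of 6.17 ± 0.09 in cTnT+, 6.10 ± 0.09 in Flk1+Pdgfra+ and 6.05 ± 0.28 in Flk1+ cells for Kcne2 and of 5.52 ± 0.17 in cTnT+, 5.52 ± 0.29 in Flk1+Pdgfra+ and 5.56 ± 0.07 in Flk1+ cells for Kcne4 (SD, n = 3 each).

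**Figure D3:**
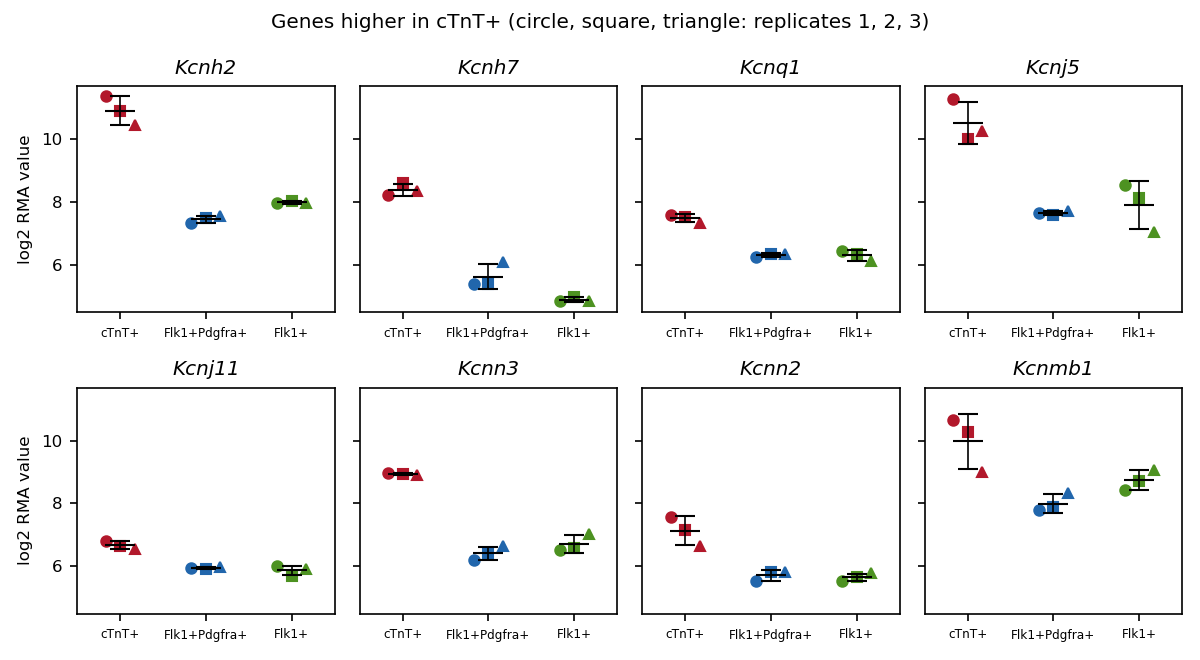
Log2 RMA value (vertical axis) of 8 Kcn genes called higher in cTnT+ than in Flk1+Pdgfra+ cells, by group (horizontal axis: cTnT+, Flk1+Pdgfra+, Flk1+); symbols are the 3 replicates and bars the mean and SD. For Kcnh2 the cTnT+ arrays sit between 10.46 and 11.36, and for Kcnmb1 the lowest cTnT+ array (8.99) falls below the highest Flk1+ array (9.07).

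The inward rectifiers moved in both directions in cTnT+ against Flk1+Pdgfra+ cells. Against Flk1+ cells 3 of 14 were called higher and 0 lower, beside 22.6% and 16.6% of all genes. Kcnj5 and Kcnj3 encode the Kir3.4 and Kir3.1 subunits that together form the acetylcholine-activated channel of atrial and pacemaker cells. Kcnj5 read 11.28, 10.01 and 10.26 in cTnT+ arrays, 7.65, 7.59 and 7.71 in Flk1+Pdgfra+ arrays and 8.53, 8.14 and 7.04 in Flk1+ arrays. The cTnT+ arrays were all higher, and the difference was 7.29-fold against Flk1+Pdgfra+ cells (2.87, 95% interval 1.91 to 3.82, adjusted p = 0.000843) and 6.12-fold against Flk1+ cells (2.61, adjusted p = 0.00152). Kcnj3 went the other way, with 7.07, 6.33 and 6.95 in cTnT+ arrays, 9.15, 8.97 and 9.44 in Flk1+Pdgfra+ arrays and 6.61, 6.98 and 10.19 in Flk1+ arrays. The first and second Flk1+ arrays lay among the cTnT+ arrays, and the third lay above every Flk1+Pdgfra+ array.

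That single Flk1+ array widened the spread behind every Kcnj3 test. The fall in cTnT+ against Flk1+Pdgfra+ cells had an adjusted p of 0.0455 and a 95% interval of -4.28 to -0.52, and the call was lost without any 1 of 7 arrays (all except the first and the third Flk1+ array; adjusted p 0.0501 to 0.125). With the third arrays of both fractions left out, the fall was -2.27 (adjusted p = 0.000581). With all arrays, Kcnj3 in Flk1+Pdgfra+ against Flk1+ cells was not called (1.26, adjusted p = 0.381). Without the third Flk1+ array it was called higher in Flk1+Pdgfra+ cells by 2.39 (adjusted p = 0.00112), and with the third arrays of both fractions left out by 2.27 (adjusted p = 0.00309). That array's Pou5f1 value of 10.73 lay within the range of the Flk1+Pdgfra+ arrays (10.47 to 11.22), and the part of this in the Kcnj3 values was not tested. Among partners of the acetylcholine-activated channel, the muscarinic receptor gene Chrm2 averaged 7.54 ± 0.55 in cTnT+ cells, 6.28 ± 0.26 in Flk1+Pdgfra+ cells and 5.91 ± 0.35 in Flk1+ cells, and was higher in cTnT+ than in Flk1+Pdgfra+ cells by 1.26 (adjusted p = 0.00845).

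Kcnj2 and Kcnj12 encode Kir2.1 and Kir2.2, which carry the current that stabilises the ventricular resting potential. Kcnj2 read 6.30, 7.34 and 7.95 in cTnT+ arrays, 5.33, 6.02 and 5.73 in Flk1+Pdgfra+ arrays and 6.52, 6.98 and 6.43 in Flk1+ arrays. The cTnT+ arrays were scattered but above all Flk1+Pdgfra+ arrays, and they overlapped the Flk1+ arrays. The rise over Flk1+Pdgfra+ cells was 1.50 (2.83-fold, adjusted p = 0.0146, 0.0557 without the first Flk1+Pdgfra+ array), and that over Flk1+ cells was 0.56 (adjusted p = 0.311). The first Flk1+Pdgfra+ array lay below the lower quartiles and the third near them, so this fold is no exact measure. Kcnj12 read 6.82, 6.53 and 6.29 in cTnT+ arrays, 6.26, 6.00 and 6.07 in Flk1+Pdgfra+ arrays and 6.19, 6.16 and 6.04 in Flk1+ arrays. These small rises of 0.44 (adjusted p = 0.0350) and 0.42 (adjusted p = 0.0437) were called, but the first was lost without any 1 of 5 arrays (the second or the third Flk1+Pdgfra+ array, the second Flk1+ array, or the first or the second cTnT+ array; adjusted p 0.0547 to 0.118) and the other without any array except the third cTnT+ array (0.0536 to 0.113).

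Kcnj11 and Kcnj8 encode Kir6.2 and Kir6.1, the pores of ATP-sensitive channels. Kcnj11 read 6.82, 6.65 and 6.56 in cTnT+ arrays, 5.94, 5.93 and 5.97 in Flk1+Pdgfra+ arrays and 6.00, 5.70 and 5.90 in Flk1+ arrays. All cTnT+ arrays were higher, by a mean of 0.73 over Flk1+Pdgfra+ cells (adjusted p = 0.000799) and 0.81 over Flk1+ cells (adjusted p = 0.000558). Abcc9, the sulphonylurea receptor SUR2 that completes the cardiac form of this channel, rose by 0.80 (adjusted p = 0.00904) and 0.72 (adjusted p = 0.0152) in the same comparisons. Kcnj8 read 6.80, 6.77 and 7.18 in cTnT+ arrays, 6.73, 7.20 and 6.95 in Flk1+Pdgfra+ arrays and 6.92, 6.67 and 6.59 in Flk1+ arrays, with all 3 groups overlapping (cTnT+ minus Flk1+Pdgfra+, -0.04, adjusted p = 0.860). Of the remaining rectifiers, the glial Kir4.1 gene Kcnj10 and Kcnj14 were lower in cTnT+ than in Flk1+Pdgfra+ cells by small amounts. Kcnj10 averaged 6.43 ± 0.05 in cTnT+ cells and 6.77 ± 0.08 in Flk1+Pdgfra+ cells (adjusted p = 0.0499, lost without any array except the first and the third Flk1+ array, at 0.0726 to 0.136). Kcnj14 averaged 6.21 ± 0.25 in cTnT+ cells and 6.78 ± 0.18 in Flk1+Pdgfra+ cells (adjusted p = 0.0151, lost without the second or the third array of either group, at 0.0501 to 0.0526). In cTnT+ against Flk1+ cells neither was called (Kcnj10 -0.06, adjusted p = 0.761, and Kcnj14 -0.06, adjusted p = 0.792).

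The calcium-activated genes rose together at the small-conductance channels. Kcnn1, Kcnn2 and Kcnn3 encode the SK1, SK2 and SK3 subunits, which open with intracellular calcium and contribute to atrial repolarisation. Kcnn3 read 8.98, 8.93 and 8.92 in cTnT+ arrays, 6.21, 6.38 and 6.63 in Flk1+Pdgfra+ arrays and 6.51, 6.59 and 7.04 in Flk1+ arrays. The cTnT+ arrays hardly differed from one another and lay far above the rest, a 5.79-fold rise over Flk1+Pdgfra+ cells (2.53, 95% interval 2.17 to 2.90, adjusted p = 1.65e-05) and 4.69-fold over Flk1+ cells (2.23, adjusted p = 3.70e-05). Kcnn2 read 7.58, 7.15 and 6.66 in cTnT+ arrays, 5.52, 5.81 and 5.82 in Flk1+Pdgfra+ arrays and 5.53, 5.65 and 5.77 in Flk1+ arrays, and rose by 1.41 (adjusted p = 0.00103) and 1.48 (adjusted p = 0.000965). Its progenitor arrays lay near the lower quartiles, so these rises are no exact folds. Kcnn1 read 7.77, 7.29 and 7.36 in cTnT+ arrays, 6.78, 6.68 and 6.76 in Flk1+Pdgfra+ arrays and 6.57, 6.55 and 6.65 in Flk1+ arrays, and rose by 0.73 (adjusted p = 0.00196) and 0.88 (adjusted p = 0.000899). For all 3 SK genes no cTnT+ array overlapped a progenitor array, and each call held whichever array was left out. Kcnn4, the intermediate-conductance channel of blood and other non-excitable cells, averaged 7.17 ± 0.56 in cTnT+ cells, 6.48 ± 0.16 in Flk1+Pdgfra+ cells and 6.86 ± 0.03 in Flk1+ cells, and was not called (0.69 over Flk1+Pdgfra+ cells, adjusted p = 0.0516). It passed without the second cTnT+ array (0.94, adjusted p = 0.0115), which held its lowest cTnT+ value, so this is no support for a rise.

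The subunits of the large-conductance BK channel did not move together. Kcnma1, the BK pore, read 5.91, 6.62 and 6.68 in cTnT+ arrays, 7.56, 7.41 and 6.84 in Flk1+Pdgfra+ arrays and 5.82, 6.16 and 6.63 in Flk1+ arrays. Flk1+Pdgfra+ arrays were the highest and the other groups overlapped. The fall in cTnT+ against Flk1+Pdgfra+ cells was called (-0.86, adjusted p = 0.0423), but not without the first or second Flk1+Pdgfra+ array, the second Flk1+ array or the first or second cTnT+ array (0.0585 to 0.136). Kcnmb1, the beta 1 subunit best known from smooth muscle, read 10.66, 10.28 and 8.99 in cTnT+ arrays, 7.78, 7.87 and 8.33 in Flk1+Pdgfra+ arrays and 8.43, 8.73 and 9.07 in Flk1+ arrays. It rose 3.95-fold over Flk1+Pdgfra+ cells (1.98, adjusted p = 0.00439). Against Flk1+ cells, where the arrays overlapped, its rise of 1.23 (adjusted p = 0.0390) was lost without any 1 of 6 arrays, the first and second of each group (0.0563 to 0.118). The summed level of 5 smooth muscle markers was 14.2 to 14.6 (log2) in cTnT+ arrays, 10.2 to 11.3 in Flk1+Pdgfra+ arrays and 9.17 to 12.3 in Flk1+ arrays. The brightest of them in cTnT+ cells were Acta2 (13.72 ± 0.15) and Des (12.25 ± 0.17). Of the 5, 4 were called higher in cTnT+ cells in both comparisons. The other, Myh11, was not called (6.46 ± 0.22 in cTnT+, 6.33 ± 0.09 in Flk1+Pdgfra+ and 6.19 ± 0.14 in Flk1+ cells, adjusted p = 0.474 and 0.135). The part of these markers in the Kcnmb1 values was not tested. Kcnmb4, the beta 4 subunit best known from neurons, read 7.50, 7.79 and 7.93 in cTnT+ arrays, 8.92, 8.82 and 8.36 in Flk1+Pdgfra+ arrays and 8.46, 8.61 and 8.26 in Flk1+ arrays. It was lower in every cTnT+ array than in every progenitor array, by -0.96 (adjusted p = 0.00280) and -0.71 (adjusted p = 0.0132, 0.0531 without the second Flk1+ array).

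Among the Kv4 pores, Kcnd1 was called and Kcnd2 and Kcnd3 were not. Kcnd1, the Kv4.1 subunit, read 8.54, 8.94 and 8.73 in cTnT+ arrays, 7.91, 8.02 and 8.23 in Flk1+Pdgfra+ arrays and 7.37, 7.21 and 7.94 in Flk1+ arrays. All cTnT+ arrays were highest, with rises of 0.69 over Flk1+Pdgfra+ cells (adjusted p = 0.0232) and 1.23 over Flk1+ cells (adjusted p = 0.00154). The first rise was lost without the first or second Flk1+Pdgfra+ array or the second or the third cTnT+ array (0.0552 to 0.0803). Kcnd2 and Kcnd3 encode Kv4.2 and Kv4.3, the pores of the fast transient outward current of the ventricle. Kcnd2 read 5.67, 5.83 and 6.56 in cTnT+ arrays, 5.58, 5.68 and 5.62 in Flk1+Pdgfra+ arrays and 5.61, 5.40 and 5.30 in Flk1+ arrays, most of them near the lower quartiles. Kcnd3 read 8.64, 7.28 and 8.09 in cTnT+ arrays, 7.71, 7.78 and 8.15 in Flk1+Pdgfra+ arrays and 7.04, 7.41 and 7.55 in Flk1+ arrays. For Kcnd3 the cTnT+ arrays overlapped both progenitor groups, and all Flk1+Pdgfra+ arrays lay above the Flk1+ arrays. Neither gene was called (adjusted p 0.0597 for Kcnd2 and 0.133 for Kcnd3 in cTnT+ against Flk1+ cells). In that comparison Kcnd2 passed without the first cTnT+ array (adjusted p = 0.0263) and Kcnd3 without the second (1.03, adjusted p = 0.0116). In each case the array left out held the gene's lowest cTnT+ value, so this is no support for a rise.

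The partners of the Kv4 channels went different ways. Kcnip2, the KChIP2 subunit that the ventricular current needs, read 7.42, 6.67 and 6.40 in cTnT+ arrays, 6.20, 6.35 and 6.54 in Flk1+Pdgfra+ arrays and 6.24, 5.83 and 6.51 in Flk1+ arrays, and was not called (0.47 over Flk1+Pdgfra+ cells, adjusted p = 0.213). Dpp6, a membrane partner of Kv4 pores, averaged 8.21 ± 0.81 in cTnT+ cells, 6.25 ± 0.05 in Flk1+Pdgfra+ cells and 5.90 ± 0.13 in Flk1+ cells, and rose 3.90-fold over Flk1+Pdgfra+ cells (adjusted p = 0.00202). Kcnip3, which encodes KChIP3, a calcium-binding Kv4 partner also known as the transcriptional repressor DREAM, fell. It read 9.68, 9.99 and 9.62 in cTnT+ arrays, 11.66, 11.54 and 11.24 in Flk1+Pdgfra+ arrays and 11.00, 11.20 and 11.26 in Flk1+ arrays. No cTnT+ array came within 1 log2 unit of a progenitor array, and Kcnip3 was 3.28-fold lower than in Flk1+Pdgfra+ cells (-1.71, 95% interval -2.04 to -1.38, adjusted p = 5.92e-05) and 2.62-fold lower than in Flk1+ cells (adjusted p = 0.000197).

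In the Shaker family (Kv1), Kcna5, the pore of the atrial ultrarapid current, read 7.50, 6.41 and 7.11 in cTnT+ arrays, 6.46, 6.83 and 7.12 in Flk1+Pdgfra+ arrays and 6.35, 6.18 and 6.16 in Flk1+ arrays. The lowest values were those of the Flk1+ arrays, but the difference between cTnT+ and Flk1+ cells missed the threshold (0.78, adjusted p = 0.0514). It passed without the second cTnT+ array (1.08, adjusted p = 0.00626), which held its lowest cTnT+ value, so this is no support for a rise. Kcna4, the Kv1.4 subunit, lay below the lower quartiles in all arrays (4.87 to 5.21). Kcna7, a Kv1 subunit of skeletal muscle and heart, was higher in cTnT+ than in Flk1+ cells, at 6.53 ± 0.10 against 6.11 ± 0.17 (0.42, adjusted p = 0.0132), a call lost when each array was centred on its median (0.33, adjusted p = 0.131). Kcna3, the Kv1.3 subunit of lymphocytes, was lower in cTnT+ than in Flk1+ cells, at 8.09 ± 0.19 against 8.57 ± 0.30 (-0.48, adjusted p = 0.0460), a call lost without any array except the first and the third Flk1+ array (0.0506 to 0.139). Kcnab2, a beta subunit of Kv1 channels, read 7.77, 7.66 and 7.43 in cTnT+ arrays, 6.39, 6.71 and 6.76 in Flk1+Pdgfra+ arrays and 6.48, 6.23 and 6.67 in Flk1+ arrays. All its cTnT+ arrays were higher, by 1.00 over Flk1+Pdgfra+ cells (adjusted p = 0.00118) and 1.16 over Flk1+ cells (adjusted p = 0.000646). Its relative Kcnab1 was uneven among cTnT+ arrays (7.55, 5.71 and 8.36) and was not called, nor was Kcnip1, which also had its lowest cTnT+ value in the second array (5.62, 4.88 and 7.10). Without that array both were called higher than in Flk1+Pdgfra+ cells, Kcnab1 by 2.25 (adjusted p = 0.00175) and Kcnip1 by 1.73 (adjusted p = 0.0101), and higher than in Flk1+ cells, Kcnab1 by 1.85 (adjusted p = 0.00462) and Kcnip1 by 1.82 (adjusted p = 0.00869). The array left out held their lowest cTnT+ values, and both genes were added after their values were seen. These calls are therefore no support for a rise.

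The modifier subunits do not conduct alone but join other Kv pores. Kcnf1 read 7.74, 7.77 and 6.99 in cTnT+ arrays, 5.94, 5.87 and 6.14 in Flk1+Pdgfra+ arrays and 6.39, 6.59 and 6.33 in Flk1+ arrays, with cTnT+ arrays apart from both. It was 2.85-fold higher in cTnT+ than in Flk1+Pdgfra+ cells (1.51, adjusted p = 0.000573) and 2.09-fold higher than in Flk1+ cells (1.06, adjusted p = 0.00390). Kcns3 read 7.93, 7.62 and 7.80 in cTnT+ arrays, 8.46, 8.48 and 9.23 in Flk1+Pdgfra+ arrays and 8.31, 8.21 and 8.59 in Flk1+ arrays. All cTnT+ arrays were lowest, a difference called against Flk1+Pdgfra+ cells (-0.95, adjusted p = 0.00783) and not against Flk1+ cells (-0.59, adjusted p = 0.0598), where it passed without the third Flk1+Pdgfra+ array (adjusted p = 0.00962).

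The K2P leak channels fell at Kcnk1 and rose slightly at Kcnk3. Kcnk1, the TWIK-1 channel, read 6.87, 7.13 and 7.22 in cTnT+ arrays, 9.04, 9.33 and 8.84 in Flk1+Pdgfra+ arrays and 7.92, 8.61 and 9.24 in Flk1+ arrays. Every cTnT+ array was below every progenitor array, with Kcnk1 3.99-fold lower than in Flk1+Pdgfra+ cells (-2.00, 95% interval -2.69 to -1.31, adjusted p = 0.00100) and 2.86-fold lower than in Flk1+ cells (adjusted p = 0.00440). Kcnk3, the acid-sensitive TASK-1 channel of heart and lung vessels, read 9.60, 8.68 and 9.79 in cTnT+ arrays, 8.62, 8.59 and 8.55 in Flk1+Pdgfra+ arrays and 8.51, 8.61 and 8.31 in Flk1+ arrays. The second cTnT+ array lay just above the progenitors and the others clearly above, and the rises of 0.77 (adjusted p = 0.0408) and 0.88 (adjusted p = 0.0251) were both lost without the first or the third cTnT+ array. The first was also lost without any Flk1+Pdgfra+ array or the first or second Flk1+ array (0.0583 to 0.124), and the other without any Flk1+ array (0.0504 to 0.0825). Kcnk10, the mechanically gated TREK-2 channel, averaged 5.75 ± 0.19 in cTnT+ cells and 6.67 ± 0.48 in Flk1+ cells (-0.93, adjusted p = 0.0115), and its Flk1+ arrays held the highest value in the third (7.22).

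**Figure D4:**
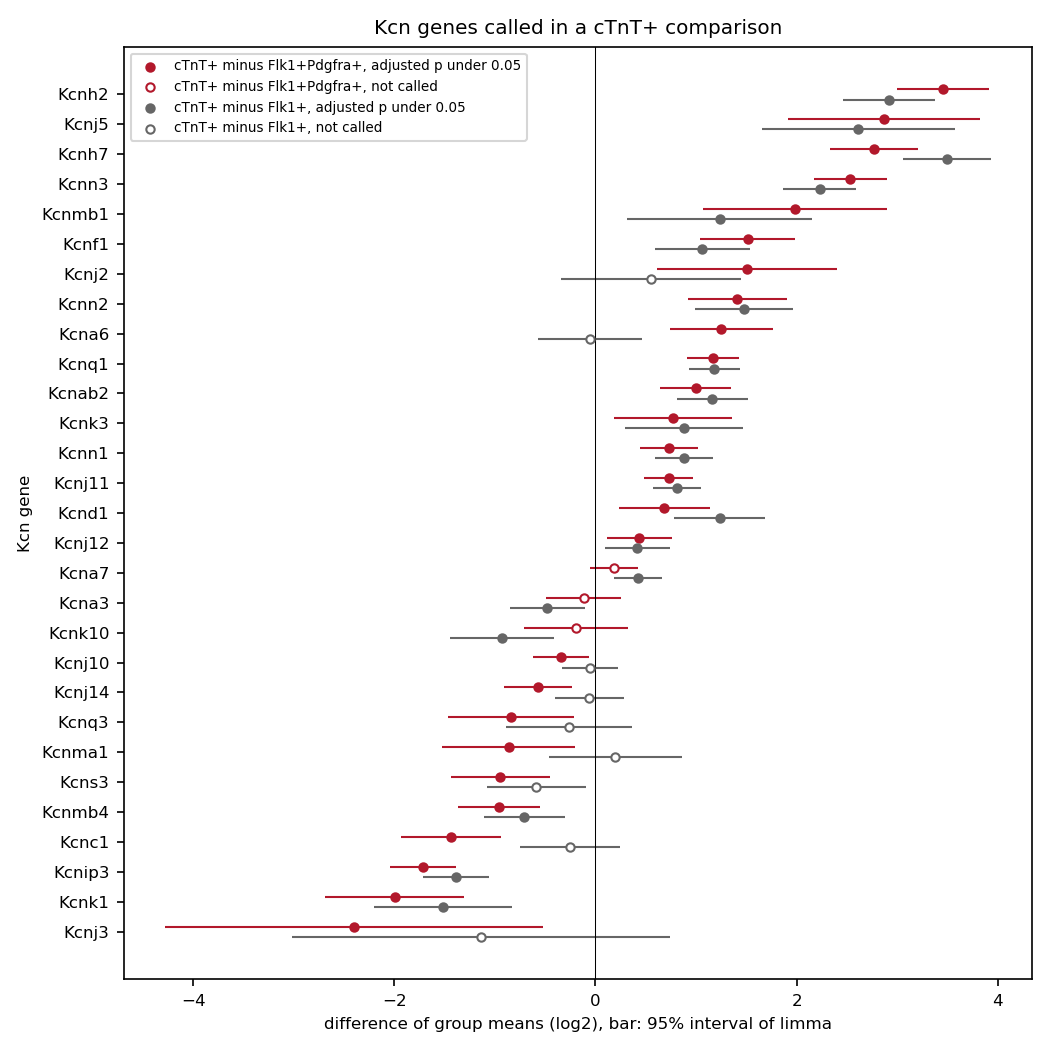
Difference of group means (log2, horizontal axis) with the 95% interval for the Kcn genes called in either cTnT+ comparison, red for cTnT+ minus Flk1+Pdgfra+ and grey for cTnT+ minus Flk1+, filled where the adjusted p was under 0.05. Kcnh2 stands at the top with 3.45 and 2.92 and Kcnj3 at the foot with -2.40 and the widest interval; both comparisons use the same cTnT+ arrays.

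Both cTnT+ comparisons share the cTnT+ arrays, so their likeness is no independent support. Of the 26 calls against Flk1+Pdgfra+ cells, 17 held whichever array was left out: the rises of Kcna6, Kcnab2, Kcnf1, Kcnh2, Kcnh7, Kcnj11, Kcnj5, Kcnmb1, Kcnn1, Kcnn2, Kcnn3 and Kcnq1 and the falls of Kcnc1, Kcnip3, Kcnk1, Kcnmb4 and Kcns3. Of the 20 calls against Flk1+ cells 15 did so, and the other 5 were those of Kcna3, Kcnj12, Kcnk3, Kcnmb1 and Kcnmb4.

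A list of genes known for cardiac repolarisation, with 22 measured members, was counted as a group. It was written with earlier results of these data known, so its counts describe the list and are no independent support. In cTnT+ against Flk1+Pdgfra+ cells 10 of the 22 were higher and 2 lower (Kcnj3 and Kcnma1), where 22.5% of all genes were higher and 18.7% lower, with a median difference of 0.45 beside 0.0043 for all genes. Against Flk1+ cells 9 were higher and 0 lower (22.6% and 16.6% of all genes), with a median of 0.65 beside 0.053. In Flk1+Pdgfra+ against Flk1+ cells limma called 0 of 22 (10.5% of all genes), with 5 at an unadjusted p under 0.05. The 10 were Kcnh2, Kcnq1, Kcnj2, Kcnj5, Kcnj11, Kcnj12, Kcnk3, Kcnn1, Kcnn2 and Kcnn3.

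Of 26 listed partner genes without a Kcn symbol, 16 were measured. The partner list, too, was written with earlier results of these data known. In cTnT+ against Flk1+Pdgfra+ cells 8 were higher and 0 lower (22.5% and 18.7% of all genes), and against Flk1+ cells 7 were higher and 0 lower (22.6% and 16.6% of all genes). In Flk1+Pdgfra+ against Flk1+ cells 1 was called, Dlg1, which was lower by -0.39 (adjusted p = 0.0427). Besides Abcc9, Chrm2 and Dpp6 the 8 were Dlg4, which encodes the scaffold PSD-95 and was 3.93-fold higher (adjusted p = 2.72e-05), Ank2, the cardiac adaptor ankyrin-B (3.72-fold, adjusted p = 0.00276), the ubiquitin ligase gene Nedd4l (2.25-fold, adjusted p = 0.0251), Akap9, an anchoring protein of the KCNQ1 complex (1.63-fold, adjusted p = 0.0265), and the scaffold gene Dlg1 (1.44-fold, adjusted p = 0.00318). Hcn2, a pacemaker channel gene, was higher in cTnT+ than in Flk1+ cells by 0.39 (adjusted p = 0.0258) and not called against Flk1+Pdgfra+ cells (0.12, adjusted p = 0.457).

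Between the progenitor fractions, 4 Kcn genes were called. With the replicate number as a block, since same-numbered arrays of the fractions deviated together, 2 were called, Kcna6 and Kcnc1. Kcna6, a Kv1 pore best known from neurons, read 6.36, 6.51 and 6.74 in Flk1+Pdgfra+ arrays and 7.54, 7.73 and 8.27 in Flk1+ arrays. All Flk1+Pdgfra+ arrays were lower, and Kcna6 was 2.47-fold lower there (-1.31, 95% interval -1.82 to -0.79, adjusted p = 0.00947). The call held without any single array. The cTnT+ arrays, at 7.42, 8.03 and 7.91, lay back among the Flk1+ values, so Kcna6 was 2.38-fold higher in cTnT+ than in Flk1+Pdgfra+ cells (adjusted p = 0.00247) and within the spread of Flk1+ cells (-0.05, 95% interval -0.57 to 0.46, adjusted p = 0.880).

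Kcnc1, the fast Kv3.1 channel of neurons, showed the mirror pattern. It read 7.63, 7.55 and 7.88 in cTnT+ arrays, 8.88, 8.95 and 9.53 in Flk1+Pdgfra+ arrays and 7.80, 7.71 and 8.31 in Flk1+ arrays. Flk1+Pdgfra+ arrays were above all others, 2.27-fold over Flk1+ cells (1.18, adjusted p = 0.0120, 0.0563 without the second Flk1+ array), and cTnT+ cells were 2.70-fold below them (-1.43, adjusted p = 0.00101). The second Kcnc1 transcript cluster gave differences of 1.17 (adjusted p = 0.0608) and -1.36 (adjusted p = 0.00927). These came from a separate limma fit adjusted over all 23332 transcript clusters, so they are not on the same footing as the values above. The comparisons of Flk1+Pdgfra+ with Flk1+ cells and of cTnT+ with Flk1+Pdgfra+ cells share the Flk1+Pdgfra+ arrays, so a high or low value there enters both with opposite sign. The neural marker list is given because both genes are best known from neurons. It summed to 10.6 to 11.1 (log2) in cTnT+ arrays and 10.6 to 11.1 in Flk1+Pdgfra+ arrays. In Flk1+ arrays it summed to 9.53, 9.50 and 11.4 for replicates 1, 2 and 3. Replicates 1 and 2 thus lay below every Flk1+Pdgfra+ array, and replicate 3 lay above them all. Between the progenitor fractions 0 of 7 markers were called, beside 10.5% of all genes. In so short a list this count does not show that the fractions were alike. The part of the neural markers in the Kcna6 and Kcnc1 values was not tested.

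Kcng3 and Kcnh7 completed the 4 and rested on narrower ground. Kcng3, a modifier subunit, read 8.68, 8.43 and 8.88 in Flk1+Pdgfra+ arrays and 6.57, 7.01 and 7.80 in Flk1+ arrays, while cTnT+ arrays (8.24, 8.88 and 7.40) overlapped both. The 2.91-fold rise in Flk1+Pdgfra+ cells (1.54, adjusted p = 0.0482) was lost without any Flk1+Pdgfra+ array, the first or second Flk1+ array or the first cTnT+ array (0.0695 to 0.154), and with the replicate block (0.0819). Kcnh7, near or below the lower quartiles in both fractions, differed by 0.73 (adjusted p = 0.0477), a call lost when any 1 of the 9 arrays was left out (0.0551 to 0.121) and with the replicate block (0.0618).

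The largest difference between the fractions was not called. Kcne3, an accessory subunit of KCNQ1 in epithelia, read 6.32, 6.62 and 4.74 in Flk1+Pdgfra+ arrays and 9.83, 10.21 and 6.54 in Flk1+ arrays. The third array of each fraction was more than 1 log2 unit below its partners. The difference was -2.97 (95% interval -5.40 to -0.54, adjusted p = 0.121) with all arrays and -4.13 (adjusted p = 0.0137) without the third Flk1+ array. The cTnT+ arrays read 6.37, 8.73 and 8.64 and were called different from neither fraction. The 8 endothelial markers, all lower in Flk1+Pdgfra+ cells, summed to 9.50 to 11.7 in Flk1+Pdgfra+ arrays and 13.9 to 14.8 in Flk1+ arrays, and their part in the Kcne3 values was not tested. Kcnma1 was higher in Flk1+Pdgfra+ than in Flk1+ cells by 1.06 and missed the threshold (adjusted p = 0.0540). It passed without the third Flk1+Pdgfra+ array (1.28, adjusted p = 0.0446) and without the third Flk1+ array (1.28, adjusted p = 0.0252).

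**Figure D5:**
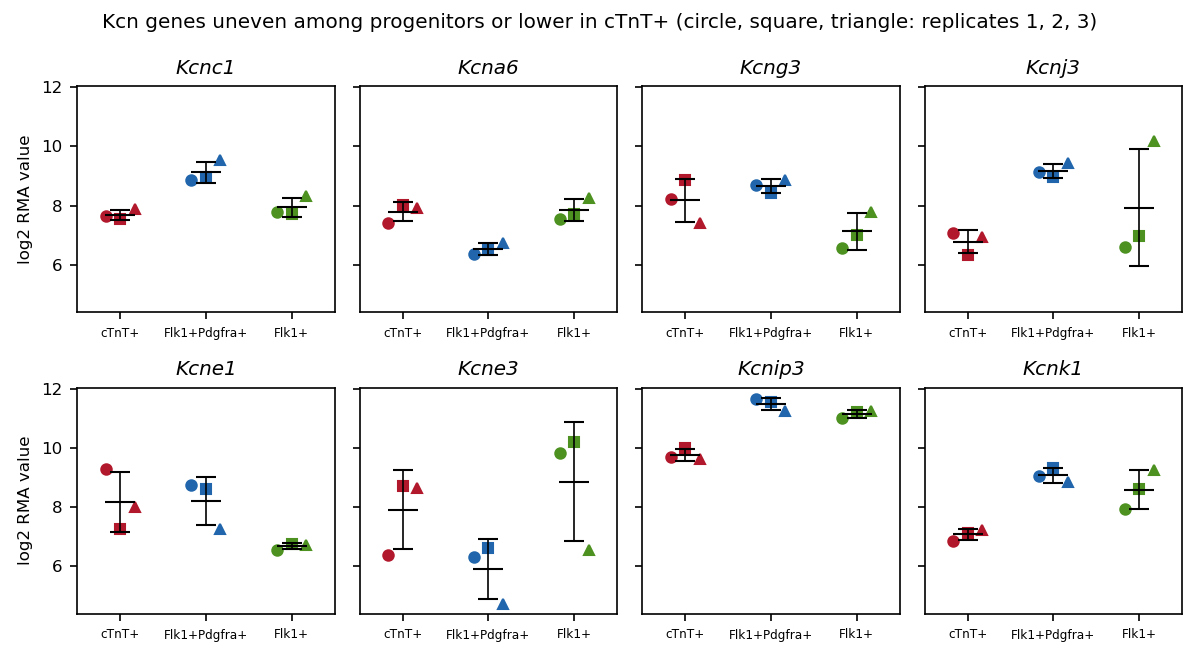
Log2 RMA value (vertical axis) of 8 Kcn genes that were uneven among the progenitor arrays or lower in cTnT+ cells (Kcne1 and Kcne3 were called in no comparison), by group (horizontal axis: cTnT+, Flk1+Pdgfra+, Flk1+); symbols are the 3 replicates and bars the mean and SD. Kcna6 is lowest and Kcnc1 highest in Flk1+Pdgfra+ cells, and the third Flk1+ array (triangle) stands at 10.19 for Kcnj3 and 6.54 for Kcne3, away from the other Flk1+ arrays.

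The 43 Kcn genes called in no comparison included 9 that lay below the lower quartiles in every group. Differences among the 43 ran from -0.67 to 2.02 in cTnT+ against Flk1+Pdgfra+ cells, from -0.95 to 1.50 in cTnT+ against Flk1+ cells and from -2.97 to 1.53 in Flk1+Pdgfra+ against Flk1+ cells, with Kcne3 or Kcne1 at each end except the lowest of the first range, Kcna1. A missed threshold with 3 arrays a group does not show that these genes were alike between the groups.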

How the data were processed

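Total RNA of 9 cell samples (3 groups of 3, grouped by the array titles) was hybridised to exon arrays. The deposited log2 values came from an RMA core-gene analysis that the authors ran in the Transcriptome Analysis Console, per the labels. RMA and R 3.3.1 also stand in the submitters' processing notes. The genome build was not given in the sources used here. RMA equalises the distributions of the arrays, so a difference in total RNA between samples is removed, and no detection p was used.

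Of 23332 transcript clusters, 14996 had 1 gene symbol in the platform annotation, 1019 several and 7317 none. Only those with 1 symbol were named, 14941 of them through RefSeq gene identifiers (GRCm38.p6), and the brightest cluster of a gene was kept, which left 14860 genes. Group differences came from limma 3.58.1, run in R 4.3.3 (lmFit, then eBayes; two-sided, 1 coefficient a group, all 9 arrays, 6 residual and 2.23 prior degrees of freedom), with Benjamini-Hochberg adjustment over all 14860 genes. Same-numbered arrays of the progenitor fractions deviated together from their group means (correlations 0.251, 0.325 and 0.460), a hint from the data and not the labels. The first and the second arrays correlated as strongly across numbers (0.347 and 0.352). Those of cTnT+ with either fraction did not (0.0231 to 0.0951), so a fit with the replicate number as a block stands beside the results between the fractions. The script was tested on simulated data. The number of arrays limits the precision.

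The Kcn genes, their families and the repolarisation, partner and marker lists were chosen with earlier results of these data known. The rule for names took every called Kcn gene, the brightest gene of each family, the repolarisation list and called partners. Array values are given for Kcn genes called with a change of at least 1 (log2) in a comparison and for the repolarisation list. Kcna1, Kcnab1, Kcnip1 and Kcnn4 were added for contrast after their values were seen. In all, 19 alternatives were run: leaving out each array in turn, leaving out the third arrays of both progenitor fractions, replicate number as a block, removal of the dimmest 25% of genes, quantile normalization, median centring, trend and robust moderation, array weights, every transcript cluster, the mean of a gene's clusters, and only the groups compared.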

Additional observations from a re-analysis of the deposited data

How the results depend on the processing

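No Kcn gene that was called changed direction under any of the 19 alternatives. The 26 calls in cTnT+ against Flk1+Pdgfra+ cells held in 17 genes under every alternative, the 20 in cTnT+ against Flk1+ cells in 14 (among them Kcnk10, which the removal of the dimmest genes left untested), and the 4 in Flk1+Pdgfra+ against Flk1+ cells in 1, Kcna6. Leaving out 1 array gave 13 to 17 Kcn genes higher and 5 to 10 lower in cTnT+ against Flk1+Pdgfra+ cells (16 and 10 with all arrays), 12 to 18 higher and 3 to 6 lower in cTnT+ against Flk1+ cells (15 and 5), and 0 to 5 higher and 1 to 3 lower in Flk1+Pdgfra+ against Flk1+ cells (3 and 1 by limma with all arrays, and 16 at an unadjusted p under 0.05). Over all genes it gave 203 to 1306 higher and 461 to 1003 lower in Flk1+Pdgfra+ against Flk1+ cells (690 and 872). The 0 and the 203 came without the second Flk1+ array, and the 5 and the 1306 without the third.

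In Flk1+Pdgfra+ against Flk1+ cells, array weights (0.494 for the third Flk1+Pdgfra+ array and 0.251 for the third Flk1+ array) gave 29 Kcn genes higher and 13 lower (4521 and 3017 over all genes), and 23 higher in cTnT+ against Flk1+ cells. With the third arrays of both fractions left out there were 5 higher and 3 lower (1148 higher over all genes). Quantile normalization gave 5 and 2, median centring 2 lower, the fit of only the groups compared 4 lower, and the test of every transcript cluster 1 higher, with 4076 of all clusters lower in cTnT+ against Flk1+ cells, where more clusters were tested. The cause of the other shifts was not tested. Median centring moved the median of all genes to -0.11 in cTnT+ against Flk1+Pdgfra+ cells.

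With the replicate block, 1 Kcn gene was higher and 1 lower in Flk1+Pdgfra+ against Flk1+ cells (Kcng3 and Kcnh7 were lost). It gave 17 and 8 in cTnT+ against Flk1+Pdgfra+ cells, where Kcnj10, Kcnk3 and Kcnma1 were lost (adjusted p 0.0723, 0.0564 and 0.0603) and Kcnip1 and Kcnn4 gained (0.0498 and 0.0394). It gave 15 and 6 in cTnT+ against Flk1+ cells, where Kcnmb1 was lost (0.0715) and Kcnip1 and Kcns3 gained (0.0406 and 0.0308). The numbers did not pair cTnT+ arrays with the others. Signal near the lower quartiles limits what can be said of dim genes.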
